A study of Saccharomyces cerevisiae with 6 samples.

Results

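Transcripts of 10 genes of the pentose phosphate pathway of budding yeast, Saccharomyces cerevisiae, were followed in cultures with and without ethanol. The genes were ZWF1, SOL4, GND1, GND2, RKI1, RPE1, TKL1, TKL2, TAL1 and NQM1, and they were chosen by name from the array's annotation. All 10 were found, each on a single probe, among 6345 features, of which 5650 were named genes. The strain was W303-1A, a haploid laboratory strain of mating type a (MATa) that carries ade2-1, can1-100, his3-11, 15, leu2-3, 122, trp1-1 and ura 3-1, and all groups shared it. Cultures grew in YEPD, a rich medium with yeast extract at 10 g/l and both bactopeptone and glucose at 20 g/l, shaken at 110 rpm and kept at 30 °C. A late exponential parent culture without ethanol started 3 cultures with 0% ethanol and 3 with 6.5% (v/v) ethanol, and each culture was a separate replicate. How long the cells were in ethanol is not given in the sources used here.

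Each culture's RNA was hybridised on one 2-colour array against a pool made from the RNA of the 0% cultures. A value here is the log2 ratio of a culture to that pool, and a change is the 6.5% minus the 0% cultures, in which the pool cancels. Such a ratio shows a transcript's share of the RNA, not its amount per cell, and it cannot show whether a marker gene of the strain was expressed. The dye that stands on top of the deposited ratio is not stated. Red over green was taken as likely, and the opposite order would turn every sign given here.

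The pentose phosphate pathway turns glucose 6-phosphate into pentose phosphates in 2 stages. Its oxidative stage makes NADPH, which biosynthesis and defence against oxidants consume, and ends in ribulose 5-phosphate. Its non-oxidative stage, which is reversible, makes ribose 5-phosphate for nucleotides and erythrose 4-phosphate for aromatic amino acids, and returns carbon to glycolysis. In yeast several steps have a main and a minor isozyme coded by paralogous genes: GND1 and GND2, SOL3 and SOL4, TKL1 and TKL2, TAL1 and NQM1. The zinc cluster factor Stb5 is known to activate many of the main genes, whereas the minor ones are known for higher expression under stress or poor carbon supply.

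With ethanol, 4 of the 10 genes fell and 2 rose, or 60.0% called, against 18.1% of all 6345 features (10.4% lower and 7.69% higher). Those that fell were GND1, RKI1, RPE1 and TKL1, which code for main isozymes or the only enzyme of a step, by between 1.35 and 1.84 on the log2 scale. Those that rose, SOL4 and NQM1, code for minor isozymes and rose by 1.50 and 1.58. The other 4, ZWF1, GND2, TKL2 and TAL1, lay between −0.50 and 0.58 and did not pass the test. Among the 6 main or sole genes (ZWF1, GND1, RKI1, RPE1, TKL1 and TAL1) 4 fell, with a median change of −1.36. Of these, ZWF1, RKI1 and RPE1 have no minor isozyme among the 10. SOL3, the main lactonase gene, was not one of the 10 and was not called (−0.28). Of the 4 minor genes (SOL4, GND2, TKL2 and NQM1) 2 rose, with a median change of 1.01. The median of all features was 0.04 and that of the 10 genes −0.01. The 10 genes were chosen with earlier results of these data known, so these shares and medians describe them and are no test.

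These calls came from limma over all features at an adjusted p (Benjamini-Hochberg) below 0.05, n = 3 arrays a group. The values of the 3 arrays of one group did not overlap those of the other for 8 of the 10 genes (80.0%), all but GND2 and TKL2, against 25.3% of all features.

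**Figure D1:**
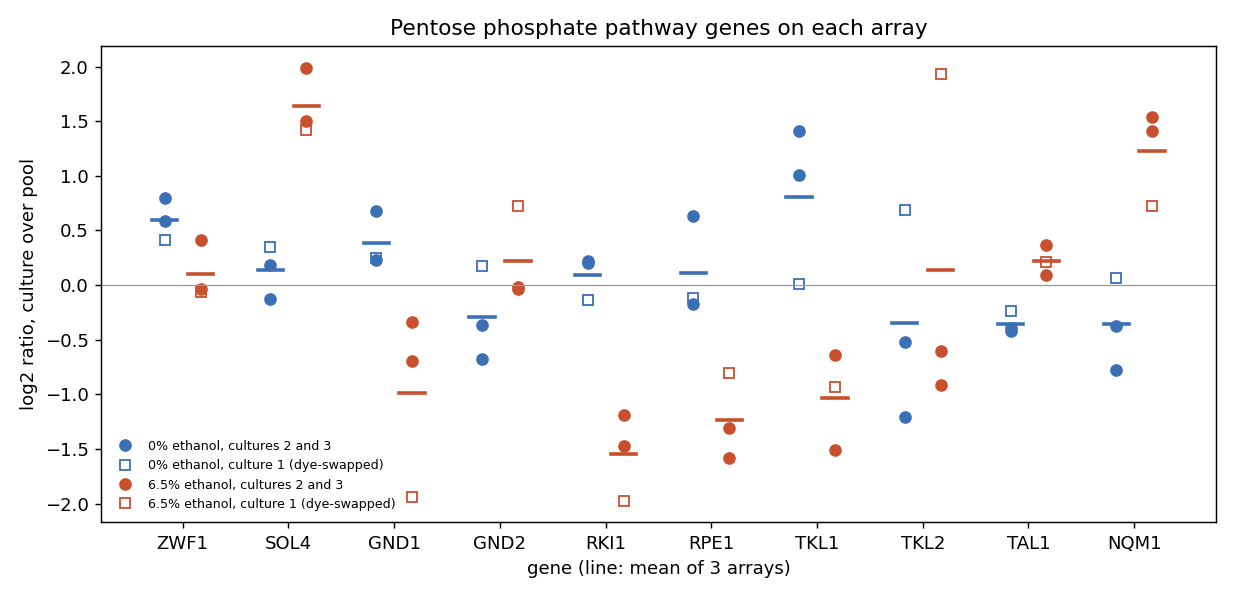
Log2 ratio of culture over pool (vertical axis) on each of the 6 arrays for the 10 pathway genes (horizontal axis), with 0% ethanol in blue, 6.5% in red, open squares for the dye-swapped arrays of culture 1 and a line at each group's mean. The 3 red points of GND1, RKI1, RPE1 and TKL1 lie below all blue points and those of SOL4 and NQM1 above them, while the groups of GND2 and TKL2 overlap.

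The number of calls depended on single arrays. After the swapped arrays were turned to culture over pool, 6.5% culture 1 correlated at −0.06 and −0.10 across probes with 6.5% cultures 2 and 3, which correlated at 0.85 with each other. The other swapped array, 0% culture 1, correlated with those 2 arrays at −0.21 and −0.25. For 0% cultures 2 and 3, which were not swapped, these correlations lay between 0.27 and 0.32. Over all features 1150 were called. Without 6.5% culture 2 this was 2 features and without 6.5% culture 3 it was 51, and in both fits no pathway gene was called. In both, 2 pathway genes higher and 4 lower had an unadjusted p below 0.05 in limma. The share of all features at that threshold is not given here, so these counts have no background to be set against. Without 0% culture 2 there were 485 calls, with 1 pathway gene lower and none higher. Without 0% culture 3 there were 754, with 2 lower and none higher. In both of these fits 2 pathway genes higher and 4 lower had an unadjusted p below 0.05 in limma, again without a share of all features. Without culture 1 of either group there were 1253, with 2 pathway genes higher and 3 lower. With the replicate number as a block, 607 features were called, among them RKI1 and SOL4.

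The oxidative stage starts with ZWF1 (YNL241C), glucose-6-phosphate dehydrogenase, which makes the first NADPH. On the 0% arrays of cultures 1, 2 and 3 ZWF1 read 0.41, 0.80 and 0.59, and on the 6.5% arrays −0.06, 0.41 and −0.04. The 6.5% arrays were thus lower, but the gap between the groups was smaller than 0.01, and the 0% cultures all read above the pool that held their own RNA. Its change of −0.50 ± 0.26 (SE) was not called (95% interval −1.11 to 0.11, adjusted p = 0.216). In a fit in which a smooth trend along the probe number was first subtracted from each array ("the trend removed" from here on), ZWF1 was at −0.14.

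SOL4 (YGR248W) codes for a 6-phosphogluconolactonase, the enzyme of the next step. It read 0.35, 0.18 and −0.12 without ethanol and 1.42, 1.99 and 1.50 with ethanol. All 3 ethanol arrays lay more than 1 log2 unit above the highest 0% array. SOL4 rose by 1.50 ± 0.29 (95% interval 0.81 to 2.19), which is 2.83-fold, with an adjusted p of 0.0189. The dye-swapped arrays alone gave a change of 1.07 and the others 1.72. Its call was lost without 0% culture 2 (1.53, adjusted p = 0.0565), 0% culture 3 (1.35, 0.0506), 6.5% culture 2 (1.30, 0.102) or 6.5% culture 3 (1.58, 0.0854), and in fits with no dye term (0.0801), with arrays scaled to the same spread (1.10, 0.123) and with quantile normalization (1.19, 0.0958).

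SOL3, the paralogue that codes for the main lactonase, was at −0.28 ± 0.27 (95% interval −0.92 to 0.36, adjusted p = 0.493). It read −0.12, 0.18 and −0.25 without ethanol and −0.43, −0.52 and −0.09 with it, so the groups overlapped.

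The second NADPH step is 6-phosphogluconate dehydrogenase, with GND1 (YHR183W) as its main and GND2 (YGR256W) as its minor gene. GND1 read 0.25, 0.68 and 0.23 in the 0% cultures and −1.94, −0.69 and −0.34 in the 6.5% cultures. All ethanol arrays were lower, and the dye-swapped one lay far below the other two. GND1 fell by 1.37 ± 0.34, or 2.59-fold (95% interval −2.19 to −0.56, adjusted p = 0.0371). The change was −2.19 on the swapped arrays and −0.97 on the others. Its call was lost without culture 1 of either group (−0.97, adjusted p = 0.0813), without 0% culture 2 (−1.36, 0.102), without 6.5% culture 2 (−1.39, 0.138) and without 6.5% culture 3 (−1.59, 0.0923). It was also lost with the replicate block (adjusted p = 0.0747), with no dye term (0.205), with arrays scaled to the same spread (0.0768) and with quantile normalization (0.0634).

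GND2 read 0.17, −0.68 and −0.37 without ethanol and 0.73, −0.04 and −0.02 with ethanol. In each group the swapped array was the highest, and the groups overlapped. GND2 was at 0.51 ± 0.24 and was not called (95% interval −0.06 to 1.09, adjusted p = 0.182).

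Ribulose 5-phosphate is then converted by 2 enzymes that have no second isozyme among these genes, and both fell. RKI1 (YOR095C), the isomerase that makes ribose 5-phosphate, read −0.14, 0.20 and 0.22 without ethanol and −1.97, −1.47 and −1.19 with it. The gap between the groups was about 1 log2 unit, wider than the spread in either. RKI1 fell by 1.64 ± 0.25, or 3.11-fold (95% interval −2.22 to −1.05, adjusted p = 0.0105), with changes of −1.84 on the swapped arrays and −1.54 on the others. Of the pathway's 6 calls, that of RKI1 was the only one to pass in all of 4 further fits: with the replicate block, with arrays scaled to the same spread, with quantile normalization and with the trend removed. It was lost without 6.5% culture 2 (−1.59, adjusted p = 0.0789), without 6.5% culture 3 (−1.75, 0.0642) and without the dye term (0.0739).

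RPE1 (YJL121C), the epimerase that makes xylulose 5-phosphate, read −0.12, −0.17 and 0.64 without ethanol and −0.81, −1.31 and −1.59 with it. All ethanol arrays lay below all 0% arrays, with 0% culture 3 apart from the other two. RPE1 fell by 1.35 ± 0.35 (95% interval −2.18 to −0.52, adjusted p = 0.0408), with changes of −0.69 on the swapped arrays and −1.68 on the others. This call lay close to the threshold. It was lost without 0% culture 2 (−1.48, adjusted p = 0.0814), 0% culture 3 (−1.02, 0.0805), 6.5% culture 2 (−1.33, 0.150) or 6.5% culture 3 (−1.17, 0.168), with the replicate block (0.0754), with the trend removed (0.0680), with no dye term (0.137), with scaled arrays (0.132) and with quantile normalization (0.112).

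In the non-oxidative stage, transketolases move pieces of 2 carbons and transaldolases pieces of 3 carbons between sugar phosphates. TKL1 (YPR074C), the main transketolase gene, read 0.01, 1.01 and 1.41 without ethanol and −0.93, −0.64 and −1.51 with it. The ethanol arrays were all lower, and 0% cultures 2 and 3 read well above the pool that contained them. TKL1 fell by 1.84 ± 0.40, or 3.58-fold (95% interval −2.78 to −0.90, adjusted p = 0.0255), with changes of −0.95 on the swapped arrays and −2.29 on the others. Its probe was number 6191 of a numbering that ran to 6495, and once the trend along the numbering was removed it was at −1.36 (adjusted p = 0.0723). The call was also lost with the replicate block (0.0525), without the dye term (0.106), after scaling (0.0770), after quantile normalization (0.0555), and without 0% culture 2 (−1.83, 0.0792), 0% culture 3 (−1.60, 0.0655), 6.5% culture 2 (−1.96, 0.0970) or 6.5% culture 3 (−1.46, 0.0977).

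TKL2 (YBR117C), the minor transketolase gene, read 0.69, −0.52 and −1.21 without ethanol and 1.93, −0.60 and −0.91 with it. The swapped arrays were high in both groups, and among cultures 2 and 3 the groups overlapped. The dye term of TKL2 was called (adjusted p = 0.00881), and it was the only one of the 10 whose dye term was. Its change of 0.48 ± 0.35 was not called (95% interval −0.35 to 1.32, adjusted p = 0.364). It was 1.24 on the swapped arrays and 0.10 on the others, and −0.00045 with the trend removed. Its probe was number 354.

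TAL1 (YLR354C), the main transaldolase gene, read −0.24, −0.40 and −0.42 without ethanol and 0.21, 0.09 and 0.37 with it. Both groups were tight and did not overlap, yet the change of 0.58 ± 0.24 was not called (95% interval −0.00135 to 1.15, unadjusted p = 0.0504, adjusted p = 0.143, limma). With the trend removed TAL1 was at 0.85 (adjusted p = 0.0640). Of the 6 main or sole genes it was the only one with a positive change.

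NQM1 (YGR043C), the minor transaldolase gene, read 0.07, −0.37 and −0.77 without ethanol and 0.73, 1.41 and 1.54 with it. All ethanol arrays were higher, with the swapped one closest to the 0% cultures. NQM1 rose by 1.58 ± 0.35 (95% interval 0.74 to 2.43), which is 3.00-fold, with an adjusted p of 0.0280. Its change was 0.66 on the swapped arrays and 2.05 on the others. The call passed with the trend removed (1.59, adjusted p = 0.0339). It was lost with the replicate block (0.0591), without the dye term (0.101), after scaling (1.37, 0.0900), after quantile normalization (1.45, 0.0715), and without 0% culture 2 (1.57, 0.0825), 0% culture 3 (1.34, 0.0676), 6.5% culture 2 (1.49, 0.126) or 6.5% culture 3 (1.42, 0.123).

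**Figure D2:**
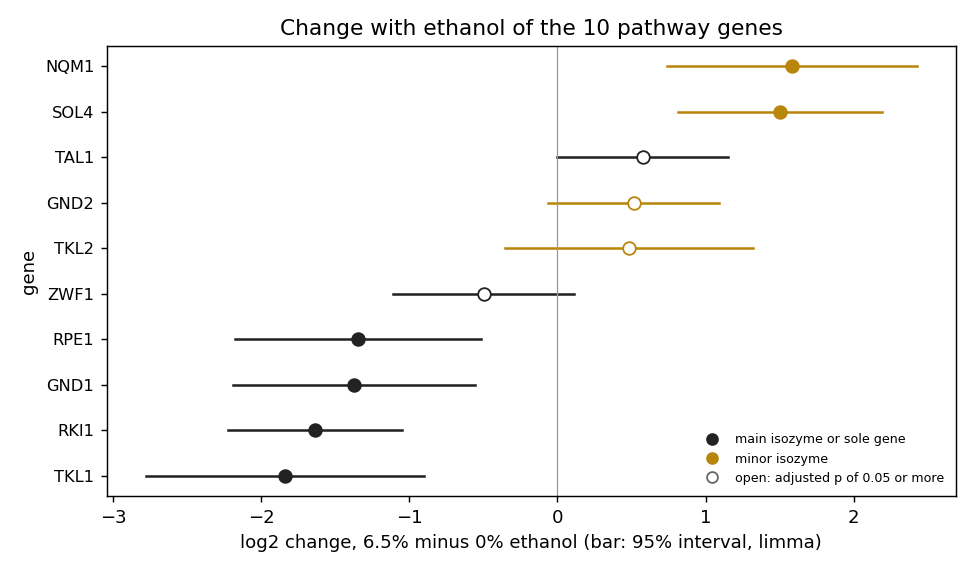
Log2 change of each pathway gene with 6.5% ethanol against 0% (horizontal axis) in order of size, with 95% intervals from limma, minor isozymes in gold and other genes in black. Filled points passed at an adjusted p below 0.05, and open points did not. TKL1, RKI1, GND1 and RPE1 lie at −1.84 to −1.35 and SOL4 and NQM1 at 1.50 and 1.58.

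In order of their changes the genes ran from TKL1 (−1.84) over RKI1 (−1.64), GND1 (−1.37), RPE1 (−1.35), ZWF1 (−0.50), TKL2 (0.48), GND2 (0.51) and TAL1 (0.58) to SOL4 (1.50) and NQM1 (1.58). Within the 4 that fell, within TKL2, GND2 and TAL1, and between SOL4 and NQM1, neighbours in this order differed by less than the larger of their SEs. TKL1 had the 159th lowest change of all features and NQM1 the 219th highest. All 10 genes had the same sign of change on the dye-swapped arrays and on the other arrays, against 66.6% of all features.

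Isozymes of one reaction were compared within each array, as the difference of their log2 ratios. The change of the minor gene lay above that of the main gene in all 4 pairs. For SOL4 minus SOL3 the difference was 0.47, 0.01 and 0.12 without ethanol and 1.85, 2.51 and 1.59 with it. The groups were far apart, and the difference changed by 1.78 ± 0.35 (95% interval 0.66 to 2.90, least squares with the dye term). The interval included 0 with arrays scaled to the same spread (1.25, −0.34 to 2.84), with quantile normalization (1.35, −0.35 to 3.04) and in 4 of the 6 fits without 1 array. For GND2 minus GND1 it was −0.08, −1.35 and −0.60 without and 2.67, 0.66 and 0.32 with ethanol, a change of 1.89 ± 0.45 (95% interval 0.47 to 3.31). The swapped 6.5% array stood apart, and the groups did not overlap. The interval included 0 with no dye term (−0.39 to 4.17), with the replicate block (−0.40 to 4.18) and in 5 of the 6 fits without 1 array, in which the change lay between 1.46 and 2.23.

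For TKL2 minus TKL1 the difference was 0.68, −1.53 and −2.61 without ethanol and 2.87, 0.04 and 0.60 with it. The groups overlapped through the swapped 0% array, and the change was 2.32 ± 0.41 (95% interval 1.02 to 3.63). With the trend removed this change was 1.36 (95% interval −0.24 to 2.96). The interval also included 0 with scaled arrays (1.74, −0.61 to 4.08), with quantile normalization (1.95, −0.32 to 4.22), with no dye term (−1.28 to 5.93) and in 3 of the 6 fits without 1 array. For NQM1 minus TAL1 the difference was 0.31, 0.02 and −0.35 without and 0.52, 1.32 and 1.17 with ethanol, a change of 1.01 ± 0.35 whose 95% interval reached from −0.12 to 2.14. In an exact two-sided permutation test over the 6 arrays, the smallest p that 3 against 3 allows is 0.10, so no pair could pass. The pairs of SOL4, GND2 and NQM1 reached it (exact p = 0.10 each, 0.133 adjusted over the 4 pairs), and that of TKL2 had an exact p of 0.30. This test takes no account of dye orientation, on which TKL2 differed. Within each orientation every ethanol array lay above every 0% array in all 4 pairs, and permuting within orientation, a test added after the data were seen, gave each an exact p of 0.167, the smallest it allows. Paralogous transcripts can bind to each other's probes; the probe sequences were not used here, and this was not tested.

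**Figure D3:**
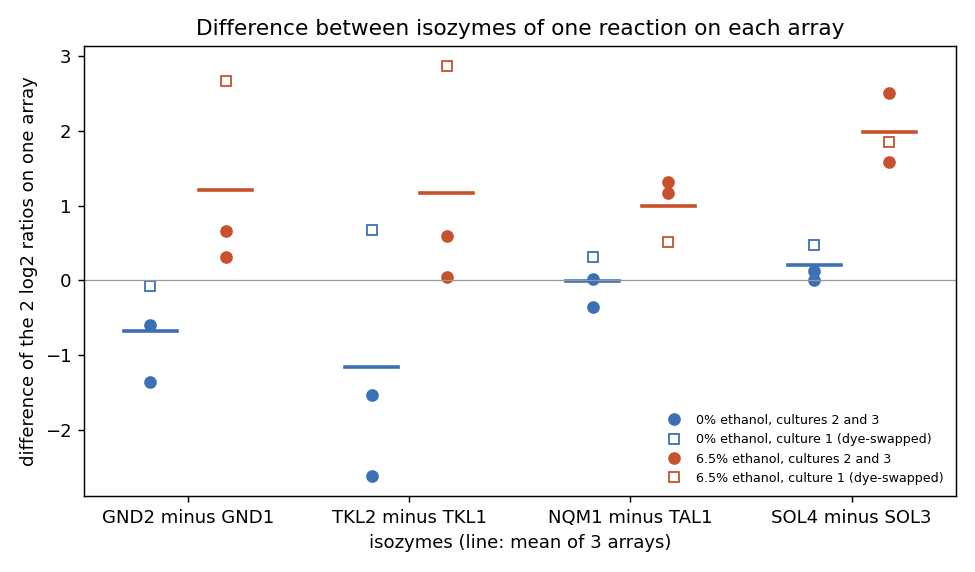
Difference between the log2 ratios of a minor and a main isozyme gene on the same array (vertical axis) for 4 pairs (horizontal axis), with 0% ethanol in blue, 6.5% in red, open squares for the dye-swapped arrays and a line at each group's mean. The mean of the red points lies above that of the blue points in each pair, by 1.01 for NQM1 minus TAL1 up to 2.32 for TKL2 minus TKL1.

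**Figure D4:**
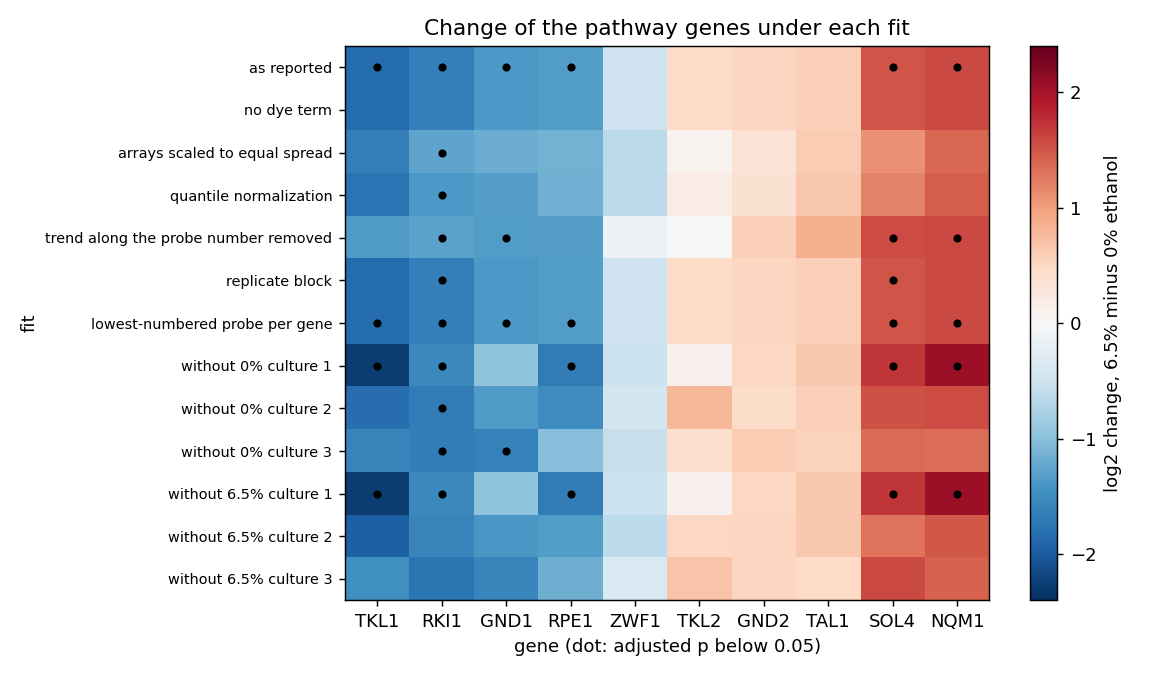
Log2 change of the pathway genes (columns) with 6.5% against 0% ethanol under each fit (rows), with blue for lower, red for higher and a dot where the adjusted p was below 0.05. The 6 called genes kept the sign of their change in every fit shown, while their dots were lost in many, all 6 of them with no dye term, without 6.5% culture 2 and without 6.5% culture 3. The fits with no dye term, with the replicate block and with the lowest-numbered probe give the same changes as the reported one.

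Of 28 genes next to the pathway, a list taken from general knowledge of yeast metabolism, 4 rose and 4 fell, with a median change of 0.18. This is 28.6% called, against 18.1% of all features. This list too was set with earlier results of these data known. Of the genes that use the pathway's products, PRS5 and PRS3 were called lower and only ARO3 higher. PRS5 and PRS3 code for subunits of the synthetase that turns ribose 5-phosphate into PRPP, the donor of ribose for nucleotides. PRS5 read −0.14, 1.07 and 1.16 without ethanol and −2.03, −1.13 and −0.89 with it and fell by 2.05 ± 0.24 (adjusted p = 0.00743). PRS3 fell by 1.47 ± 0.29 (adjusted p = 0.0195, but 0.0761 with scaled arrays and 0.0575 with quantile normalization), while PRS1 was at −0.88 (adjusted p = 0.0633), PRS2 at 0.19 and PRS4 at −0.12. ARO3, a DAHP synthase that joins erythrose 4-phosphate to the aromatic pathway, rose by 1.25 ± 0.26 (adjusted p = 0.0223, but 0.112 with the trend removed and 0.0532 with the replicate block). ARO4, which also uses erythrose 4-phosphate, was at 0.25 (adjusted p = 0.573). The NADPH-using reductases GLR1 and TRR1 were at −0.38 and −0.41 and were not called.

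Among the 8 other sources of NADPH and the kinases of NAD or NADH, 2 rose and 2 fell. Of all features, 7.69% were called higher and 10.4% lower. IDP2 (0.61), IDP3 (0.39), POS5 (−0.52) and UTR1 (0.09) were not called. ALD6, the cytosolic acetaldehyde dehydrogenase that makes NADPH beside Zwf1, read 0.18, 0.87 and 0.56 without ethanol and −1.85, −0.997 and −1.08 with it. All ethanol arrays were lower, and ALD6 fell by 1.84 ± 0.25 (adjusted p = 0.00857). MAE1, the mitochondrial malic enzyme, fell by 1.65 ± 0.26 (adjusted p = 0.0122). IDP1, the mitochondrial NADP-dependent isocitrate dehydrogenase, rose by 1.42 ± 0.29 (adjusted p = 0.0211, but 0.102 with the trend removed, 0.0846 with scaled arrays and 0.0715 with quantile normalization). YEF1, a kinase that makes NADPH from NADH, rose by 1.10 ± 0.29 (adjusted p = 0.0437), with groups that overlapped, and its call was lost in all 6 fits without 1 array, with the replicate block (0.0631), with the trend removed (0.84, adjusted p = 0.112), with scaled arrays (0.71, 0.319) and with quantile normalization (0.81, 0.231).

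GRE3, an aldose reductase that also reduces xylose, rose by 1.66 ± 0.25 (adjusted p = 0.0109, but 0.0535 with scaled arrays), reading 0.10, 0.21 and 0.35 without and 1.48, 2.20 and 1.96 with ethanol. STB5, the activator of pathway genes, was at 0.26 ± 0.37 (95% interval −0.62 to 1.14, adjusted p = 0.651). The 20 genes of this list that did not pass lay between −0.88 and 1.00. Without 6.5% culture 2 or without 6.5% culture 3, as with no dye term, no gene of this list was called. In each fit without 1 of these arrays, 4 higher and 4 lower had an unadjusted p below 0.05 in limma. The share of all features at that threshold is not given here. Without these arrays the adjusted p-values of the 8 called genes ran from 0.0594 (PRS5) to 0.185 (YEF1) and from 0.0546 (PRS5) to 0.125 (YEF1). Without 0% culture 2 the calls of PRS3 (−1.27, adjusted p = 0.0554), ARO3 (1.24, 0.0620), IDP1 (1.25, 0.0620) and YEF1 (1.21, 0.0814) were lost, and without 0% culture 3 those of ARO3 (1.15, 0.0567), IDP1 (1.45, 0.0502) and YEF1 (0.93, 0.102).

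**Figure D5:**
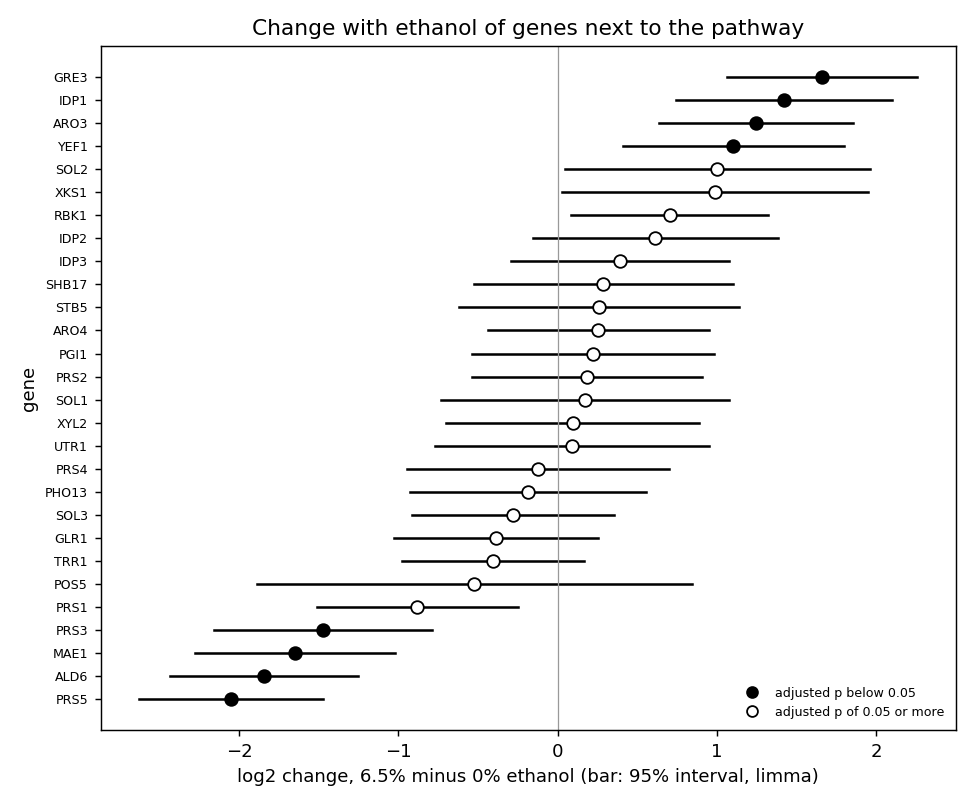
Log2 change with 6.5% against 0% ethanol (horizontal axis) of 28 genes next to the pathway, with 95% intervals from limma. Filled points, those with an adjusted p below 0.05, run from PRS5 at −2.05 to MAE1 and PRS3 among lower genes and from YEF1 to GRE3 at 1.66 among higher genes.

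For each called pathway gene, the named genes most alike over the 6 arrays were taken by the root mean square difference of their log2 ratios, which counts the dye effects too. For SOL4 these were HSP42, a small heat shock protein gene (0.14), MED2 (0.21) and SPS100 (0.22). For NQM1 they were IRC23 (0.18), MAG1, a DNA glycosylase gene (0.19), and GUT2, mitochondrial glycerol-3-phosphate dehydrogenase (0.21). RKI1 was closest to EGD1, which codes for a subunit of the nascent polypeptide-associated complex (0.11), then to ALA1, alanyl-tRNA synthetase (0.19), and LTV1 (0.19). GND1 was closest to YNL095C (0.23), RRS1 (0.23) and ECM16 (0.23), of which RRS1 and ECM16 act in ribosome assembly. RPE1 was closest to ERG4 of sterol synthesis (0.15), the methionine permease gene MUP1 (0.19) and SGD1 (0.19). TKL1 had no gene as close, with PHO4 (0.28), YPL216W (0.29) and the polyamine transporter gene TPO3 (0.32) nearest.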

How the data were processed

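The authors deposited one table of log2 ratios for 6368 probes on 6 arrays; the sources used here do not give scanner, background correction, normalization or ratio direction. Intensities were not analysed here, so signal over background is unknown. Values stop at 6.64 on both sides, and no pathway gene reached that limit. Per the labels, culture 1 of each group was dye-swapped, with the pool in red; these arrays were multiplied by −1. Gene names came from the platform annotation and were brought up to date through the gene identifiers in RefSeq's R64 table (5673 probes with 1 gene, all matched, 695 with none), and probes of one gene were averaged.

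Group differences over all 6345 features were fitted by limma 3.58.1 (R 4.3.3; lmFit, eBayes) on group and dye orientation, with 3 residual degrees of freedom and Benjamini-Hochberg adjustment. A dye effect was called for 2155 features. The code was tested on simulated data. Genes named were the 10 pathway genes, called genes of a 28-gene list with SOL3, ALD6 and STB5, and the 3 genes most alike each called pathway gene; further names and values were chosen after they were seen. Members and lists were chosen with earlier results of these data known. Same-numbered cultures of the 2 groups deviated together (r = 0.70, 0.48 and 0.43 across features), which met the criterion for pairing; number 1 marks the dye swap in the labels, and the difference of culture 2 and 3 did not correlate between the groups (r = −0.04).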

Additional observations from a re-analysis of the deposited data

How the results depend on the processing

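The 4 isozyme differences kept their sign in all 12 alternative fits, but their 95% intervals included 0 in 7 of them for GND2 minus GND1, 7 for TKL2 minus TKL1, 9 for NQM1 minus TAL1 (as it did in the reported fit) and 6 for SOL4 minus SOL3. The changes of the 6 called pathway genes kept their sign in all 12 as well. With no dye term, with the replicate block or with the lowest-numbered probe, these changes and differences equalled the reported ones. Those fits could not turn a sign. The calls were less stable. Without the dye term 78 features were called, with 0 pathway genes and 0 of the 28 neighbouring genes in either direction. In limma 2 pathway genes higher and 4 lower, and 3 neighbours higher and 4 lower, had an unadjusted p below 0.05. For such unadjusted counts, the share of all features is not given in this section. After scaling the arrays to equal spread 303 features were called, with 0 pathway genes higher and 1 lower, and 1 neighbour higher and 3 lower. At an unadjusted p below 0.05 in limma these counts were 3, 5, 4 and 4. After quantile normalization 484 were called, with 0 pathway genes higher and 1 lower, and 2 neighbours higher and 3 lower. At an unadjusted p below 0.05 in limma these counts were 3, 4, 4 and 4. Removing a smooth trend along the probe number (lowess, span 0.1) gave 831 calls, with 2 pathway genes lower and 1 neighbour higher, and TKL2 was at −0.00045 instead of 0.48. With the replicate block, which takes the place of the dye term, 607 features were called, with 1 pathway gene higher, 1 lower and 2 neighbours higher. Keeping the lowest-numbered probe of each gene gave 1144 calls and changed no pathway gene, since each had 1 probe. Leaving out 1 array gave between 2 and 1253 called features, 0 to 2 pathway genes higher, 0 to 3 lower, 0 to 4 neighbours higher and 0 to 5 lower, and STB5 lay between −0.10 and 0.64. Leaving out either swapped array gives the same fit, because the dye term then takes up the remaining one. That fit is counted once for each of the 2 swapped arrays, both among the 12 alternative fits and among the 6 without 1 array. The fits without 1 array had fewer samples, but the cause of the lost calls was not tested. The precision was limited by 3 arrays a group.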
